A study of Mus musculus with 12 samples.

Results

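Syndecans and glypicans are the 2 families of heparan sulfate proteoglycans that sit in the cell membrane, and their 10 mouse genes, Sdc1 to Sdc4 and Gpc1 to Gpc6, were picked by symbol out of the 25203 genes of a table of expression values. RNA had been sequenced from 12 libraries of primary mouse stromal cell cultures, from a study of the intestine. The cells carry a Pdgfra reporter (H2B-GFP, a nuclear green fluorescent protein) at a low level, which marks 1 class of fibroblast by the promoter of a platelet-derived growth factor receptor gene. There were 4 groups of 3 libraries. Vehicle and TGFB1 were cultures with an intact Tgfbr2 gene that received vehicle or added TGFB1, a ligand of the TGF-beta receptors. Tgfbr2KO_Vehicle and Tgfbr2KO_TGFB1 were cultures of knockout cells for Tgfbr2, the type 2 TGF-beta receptor, with the same treatments. All 12 cultures are of 1 cell source, labelled mesenchyme. The dose and time of TGFB1, the way the knockout was made, the deleted part of the gene and the age of the mice are not given in the sources used here. The design asks which genes added TGFB1 changes and whether any response is left in cells without the receptor.

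A syndecan spans the membrane with a short cytoplasmic tail that binds PDZ proteins and the cytoskeleton, and its extracellular part carries heparan sulfate and in some members also chondroitin sulfate. A glypican has no tail: it is held by a lipid anchor (GPI) and carries its heparan sulfate chains close to the membrane. The sulfated chains bind growth factors, morphogens and chemokines and present them to their receptors, and both kinds of protein can be shed or released from the cell. In fibroblasts, syndecans also act with integrins in adhesion to the matrix.

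The promoter sequences of 4 members are shown because Sdc3 and Sdc4, and likewise Gpc4 and Gpc3, changed in opposite directions with TGFB1. RefSeq entries (build GRCm38.p6) were found for 7 of the 10 members, and Sdc2, Gpc1 and Gpc6 had none. Each run is the 250 bases upstream of the annotated start, 5′ to 3′ on the strand of the gene: chr4:130792287-130792536 (+) for Sdc3, chr2:164443189-164443438 (-) for Sdc4, chrX:52164924-52165173 (-) for Gpc4 and chrX:52613975-52614224 (-) for Gpc3. Capitals mark matches, on either strand, to the core SMAD element CAGAC (SMADs are the transcription factors of TGF-beta signalling), the GC box GGGCGG, the TEAD element GGAATG and the kappaB consensus. The AP-1 site TGANTCA was also searched and was in none of the 7.
Sdc3: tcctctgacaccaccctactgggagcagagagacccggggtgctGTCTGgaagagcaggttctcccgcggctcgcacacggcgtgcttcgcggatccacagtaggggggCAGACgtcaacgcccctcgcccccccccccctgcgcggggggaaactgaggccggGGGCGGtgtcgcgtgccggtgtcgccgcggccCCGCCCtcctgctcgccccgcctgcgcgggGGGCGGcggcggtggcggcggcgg
Sdc4: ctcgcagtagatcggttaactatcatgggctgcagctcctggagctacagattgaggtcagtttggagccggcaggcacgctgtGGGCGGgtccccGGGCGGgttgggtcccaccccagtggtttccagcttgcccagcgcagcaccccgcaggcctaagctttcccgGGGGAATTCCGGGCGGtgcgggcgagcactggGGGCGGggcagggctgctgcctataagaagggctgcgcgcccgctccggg
Gpc4: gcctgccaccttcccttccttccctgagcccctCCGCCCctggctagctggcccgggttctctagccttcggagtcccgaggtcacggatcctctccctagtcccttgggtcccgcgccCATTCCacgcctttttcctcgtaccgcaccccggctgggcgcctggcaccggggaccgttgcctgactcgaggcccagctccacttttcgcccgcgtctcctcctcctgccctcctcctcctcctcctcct
Gpc3: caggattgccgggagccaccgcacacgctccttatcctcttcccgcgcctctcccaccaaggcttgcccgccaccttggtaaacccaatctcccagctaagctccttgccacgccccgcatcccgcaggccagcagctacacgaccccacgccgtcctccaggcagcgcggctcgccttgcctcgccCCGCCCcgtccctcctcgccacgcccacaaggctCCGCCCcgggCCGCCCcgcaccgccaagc
The Sdc3 window held 2 SMAD elements, 206 to 202 bases upstream on the opposite strand and 141 to 137 bases upstream on the gene's strand, and 3 GC boxes. Sdc4 held no SMAD element, 4 GC boxes and 1 kappaB match 82 to 73 bases upstream, which abuts the GC box at 72 to 67 bases. The kappaB search was added after that sequence had been read. In Gpc4 there were 1 GC box and 1 TEAD element, and in Gpc3 there were 3 GC boxes, all 14 to 63 bases upstream. Neither held a SMAD element. Sdc1, which is not shown, held 1 SMAD element 215 to 211 bases upstream, 3 GC boxes and 1 kappaB match 134 to 125 bases upstream. Gpc2 and Gpc5, also not shown, held GC boxes only. Of 32851 promoter windows of the same length, 42.2% held a SMAD element, 32.7% a GC box, 12.6% a TEAD element, 7.25% a kappaB match and 6.75% an AP-1 site. The share of G and C was 76.4% in the Sdc3 window, 68% in Sdc4, 68.4% in Gpc4 and 71.6% in Gpc3. The median over all windows was 52.4%, so the share with a GC box is not a matched background. A match is a description of the letters and not a measured site. In RefSeq order, Gpc4 and Gpc3 are neighbours on chromosome X, and Gpc5 and Gpc6 are neighbours on chromosome 14.

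Tgfbr2 itself was read at 48.0, 38.2 and 78.8 FPKM in Vehicle and at 27.0, 35.2 and 41.9 FPKM in Tgfbr2KO_Vehicle (log2 difference -0.61, SE 0.30, limma adjusted p = 0.260). FPKM is fragments per length of transcript and library size, so levels can be compared between genes. With TGFB1 it was 56.5, 70.6 and 74.6 FPKM in intact and 31.6, 38.0 and 62.4 FPKM in knockout cultures. In both comparisons Tgfbr2 was lower in the knockout in all 3 pairs of the same replicate number. With TGFB1 the limma adjusted p was 0.119. In a fit that blocks on replicate number, the limma adjusted p was 0.0450 with vehicle and 0.0132 with TGFB1. A whole-gene value does not check a deletion of unknown extent. The number of reads is not given. From the steps of low values, libraries lay between 0.742 and 1.24 times the depth of Vehicle replicate 1, with the TGFB1 group at 0.742 to 0.796. The 9 listed fibroblast markers summed to 3186 to 9012 FPKM per library, and each was at 1 FPKM or more in all libraries except Lum in TGFB1 replicate 2. Pdgfra, the basis of the reporter, was at 142 ± 20.7 FPKM in Vehicle and 15.2 ± 4.01 FPKM in TGFB1 (SD, n = 3). Markers of plasma and B cells, for which Sdc1 is a known surface marker, summed to at most 0.419 FPKM, and Tnfrsf17 was at 0 in all 12 libraries. Epithelial markers summed to 3.20 to 11.6 FPKM in 10 libraries and to 66.0 and 29.5 FPKM in replicate 1 of Tgfbr2KO_Vehicle and Tgfbr2KO_TGFB1, where they were mostly Krt8, Krt18 and Krt19. Leukocyte markers, mostly Lyz2, ranged from 12.4 to 601 FPKM. Smooth muscle and pericyte markers, mostly Actg2, summed to 1214 to 2575 FPKM, and endothelial, mesothelial and enteric glia markers to at most 13.1, 5.59 and 1.11 FPKM.

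In Vehicle cultures, 3 of the 4 syndecans and 1 glypican made up most of the signal. Sdc3 (89.4 ± 4.46 FPKM) and Sdc1 (88.1 ± 8.28 FPKM) were highest and overlapped each other (SD, n = 3, as for every mean here). They were followed by Sdc4 (68.5 ± 1.39 FPKM) and Gpc4 (65.0 ± 14.1 FPKM), which also overlapped. Sdc2 (28.9 ± 2.38 FPKM) and Gpc1 (18.9 ± 3.51 FPKM) came next, each apart from its neighbours. Gpc2 (13.7 ± 0.406 FPKM), Gpc3 (12.0 ± 9.97 FPKM) and Gpc6 (9.77 ± 0.891 FPKM) followed, and the range of Gpc3 overlapped both. Gpc5, a glypican known from brain and muscle development, was listed at 0 in 10 of 12 libraries, at 0.0156 FPKM in Vehicle replicate 2 and at 0.0205 FPKM in TGFB1 replicate 3. It did not reach 1 FPKM in 3 libraries and was not tested, so 9 of 10 members were tested.

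**Figure D1:**
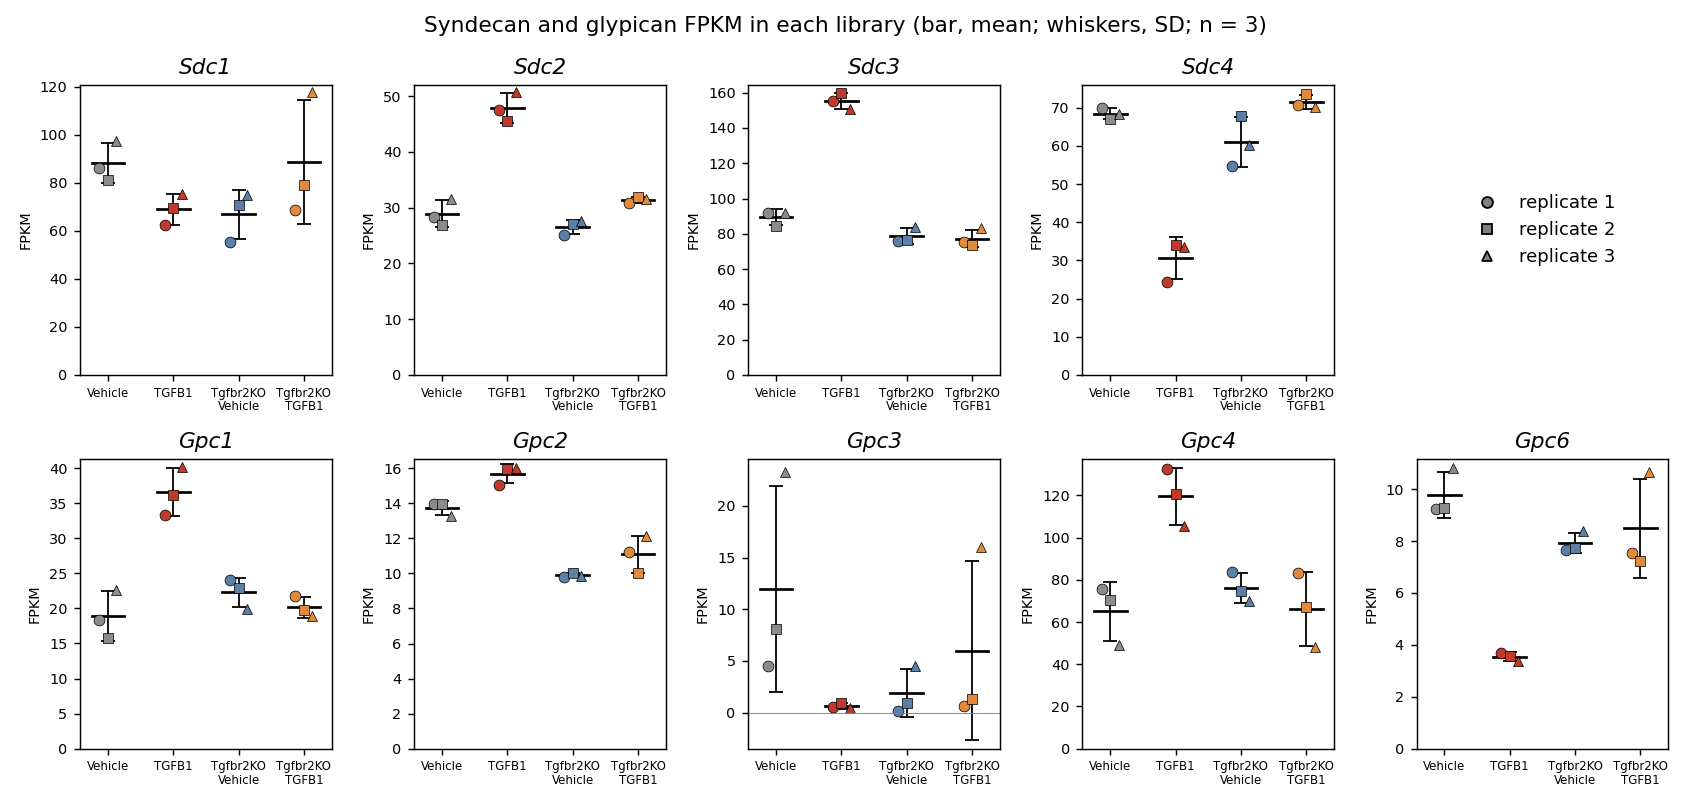
FPKM (vertical axis, linear) of the 9 tested syndecans and glypicans in each library of the 4 groups (horizontal axis); points are libraries with a shape for each replicate number, bars are means and whiskers SD (n = 3), drawn symmetrically and so below 0 for Gpc3. In the TGFB1 group, Sdc2, Sdc3, Gpc1, Gpc2 and Gpc4 lie above and Sdc4 and Gpc6 below all 9 other libraries, and replicate 3 is the highest Gpc3 point in the other 3 groups. The share of all tested genes that stand apart from the other libraries in this way was not counted.

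TGFB1 changed 7 of the 9 tested members in intact cultures. The first question was what added TGFB1 does where the receptor gene is intact. Sdc2, Sdc3, Gpc1 and Gpc4 rose, by 1.66 to 1.93 times in mean FPKM, while Sdc4, Gpc6 and Gpc3 fell 2.24-fold, 2.75-fold and 19.7-fold. The fold of Gpc3 was 10.4 without Vehicle replicate 3. Sdc1 and Gpc2 did not pass the test. Of all 12641 tested genes, 31.9% passed (17.3% higher and 14.6% lower). The groups did not overlap in FPKM for any of the 9 members, against 47.9% of all tested genes. The tests are limma fits to log2(FPKM + 1), with p-values adjusted over all tested genes by the Benjamini-Hochberg method and a threshold of 0.05. Log2 changes on this scale understate those of genes with low FPKM. In bulk RNA, fewer cells of a type and less RNA per cell cannot be told apart.

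Among the syndecans, Sdc3 is best known from neurons and muscle, where its ectodomain binds growth factors. In order of replicate, the Vehicle libraries read 92.0, 84.2 and 91.9 FPKM, and those with TGFB1 read 155, 160.0 and 151 FPKM. All TGFB1 libraries were thus higher than all Vehicle libraries, by 0.79 on the log2 scale (SE 0.064, limma adjusted p = 1.8e-05). By replicate number the log2 difference was 0.75, 0.92 and 0.71. The leukocyte marker sum was lowest in replicate 2 of both groups (33.3 and 12.4 FPKM), and its part in the Sdc3 values was not tested. Sdc2, a syndecan of mesenchymal cells, was read at 28.3, 26.9 and 31.5 FPKM in Vehicle and 47.5, 45.5 and 50.7 FPKM in TGFB1. This difference of 0.71 (SE 0.068, limma adjusted p = 4.77e-05) was also free of overlap.

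Sdc4, the syndecan of focal adhesions, which binds protein kinase C alpha, moved the other way. It went from 69.9, 67.1 and 68.4 FPKM in Vehicle to 24.2, 34.1 and 33.4 FPKM in TGFB1, a log2 difference of -1.15 (SE 0.12, limma adjusted p = 7.2e-05). Replicate 1 was the lowest TGFB1 library. Sdc1, the main syndecan of epithelia and plasma cells and inducible in other cells, had 86.1, 81.0 and 97.2 FPKM in Vehicle and 62.3, 69.5 and 75.1 FPKM in TGFB1. All 3 TGFB1 libraries were below all 3 Vehicle libraries, but the difference of -0.35 (SE 0.18) missed the threshold in the fit to all groups (limma adjusted p = 0.176). A fit that blocks on replicate number gave a limma adjusted p of 0.0357, and in a fit to these 2 groups alone it was 0.0378. Markers of plasma and B cells were near 0 in both groups, and the epithelial marker sum lay between 6.21 and 9.64 FPKM in Vehicle libraries and between 3.20 and 6.14 FPKM with TGFB1. Krt19 was the largest part of that sum, with means of 6.56 FPKM in Vehicle and 2.51 FPKM with TGFB1. The other listed epithelial markers had means of at most 1.21 FPKM in these groups. With TGFB1 the means of Krt20, Krt18, Krt8 and Cdh1 were higher, and those of Epcam, Cldn7 and Vil1 lower.

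The glypicans split as well. Gpc4, a glypican that binds FGF and Wnt ligands, was read at 75.8, 70.2 and 49.1 FPKM without TGFB1 and at 132, 120.8 and 105 FPKM with it. In both groups replicate 3 was lowest, and all TGFB1 values were above all Vehicle values (log2 0.89, SE 0.20, limma adjusted p = 0.00794). Gpc1, a widely expressed glypican that acts in FGF signalling, had 18.3, 15.7 and 22.7 FPKM in Vehicle and 33.4, 36.2 and 40.1 FPKM in TGFB1 (log2 0.93, SE 0.12, limma adjusted p = 0.000409). Gpc2, a glypican of the developing nervous system, had 14.0, 14.0 and 13.3 FPKM in Vehicle against 15.1, 16.0 and 16.0 FPKM in TGFB1. These groups did not overlap, but the log2 difference was 0.18 (SE 0.065, limma adjusted p = 0.0594). It was 0.05 when libraries were scaled to equal FPKM sums and 0.09 with upper-quartile scaling.

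Gpc6, which is close to Gpc4 in sequence and is known to promote Hedgehog signalling in growing bone, had 9.23, 9.29 and 10.8 FPKM in Vehicle and 3.69, 3.59 and 3.37 FPKM in TGFB1. The fall of 1.24 on the log2 scale (SE 0.12, limma adjusted p = 5.22e-05) left no overlap between the groups. Gpc3, a glypican known to restrain Hedgehog signalling and body growth, was at 4.48, 8.12 and 23.3 FPKM in Vehicle and at 0.505, 0.913 and 0.402 FPKM in TGFB1. No TGFB1 library reached 1 FPKM, and the lowest Vehicle library was above the highest TGFB1 library. The log2 change was -2.74 (SE 0.88, limma adjusted p = 0.0365, and 0.00477 with the replicate block). This call did not hold with no filter on low values (0.0618), without Vehicle replicate 2 (0.0721) or 3 (0.120), without TGFB1 replicate 1 (0.0921), 2 (0.0684) or 3 (0.0957), or without Tgfbr2KO_Vehicle replicate 2 (0.0512).

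The make-up of both families shifted accordingly. Sdc3 held 32.5% ± 0.743 of the summed syndecan FPKM in Vehicle and 51.3% ± 2.57 in TGFB1 (SD, n = 3). Sdc4 went from 24.96% ± 1.15 to 10.1% ± 1.47, Sdc1 from 32.0% ± 1.397 to 22.8% ± 1.38 and Sdc2 from 10.5% ± 0.349 to 15.8% ± 0.973. Each of these 4 shares was free of overlap between the groups, while the syndecan sum was 275 ± 15.0 FPKM in Vehicle and 303 ± 11.6 FPKM with TGFB1. The glypican sum was 119 ± 2.23 FPKM with vehicle and 176 ± 9.94 FPKM with TGFB1. Gpc4 held 54.4% ± 11.5 of it in Vehicle and 67.8% ± 3.91 in TGFB1, Gpc6 8.19% ± 0.781 and 2.02% ± 0.0219, and Gpc3 10.1% ± 8.38 and 0.343% ± 0.149. Shares of 1 sum are tied to each other and were not tested.

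**Figure D2:**
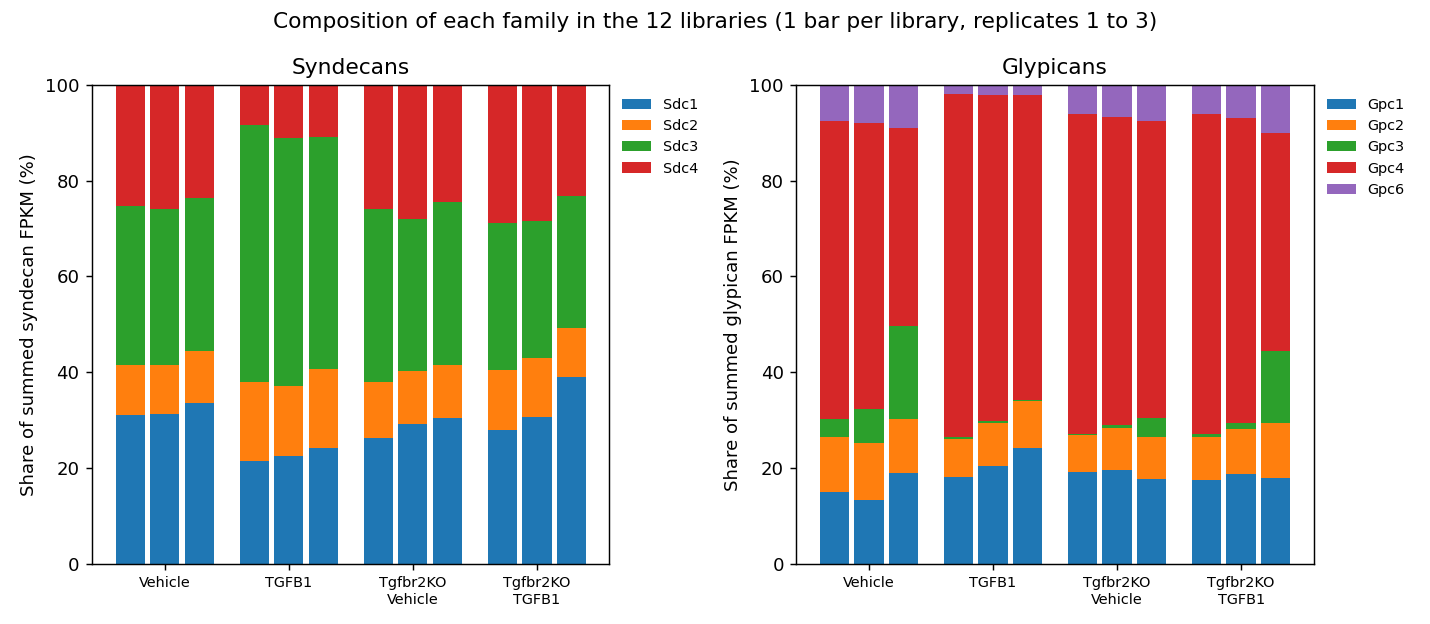
Share of each gene in the summed FPKM of its family (vertical axis, percent), with 1 bar per library and the 4 groups along the horizontal axis; left, syndecans, and right, glypicans without Gpc5. Sdc3 takes 48.6% to 53.7% of the syndecan sum in TGFB1 libraries, and Gpc3 is visible mainly in Vehicle and in replicate 3 of both knockout groups.

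In knockout cultures the same comparison called no member. Values in Tgfbr2KO_Vehicle and Tgfbr2KO_TGFB1 are given first for genes that had changed in intact cultures. Sdc3 was 76.2, 76.2 and 83.7 FPKM with vehicle and 75.2, 73.6 and 83.0 FPKM with TGFB1. Gpc1 was 24.0, 22.9 and 19.9 FPKM and then 21.8, 19.8 and 18.9 FPKM, and Gpc4 was 83.9, 74.9 and 69.8 FPKM and then 83.4, 67.3 and 48.1 FPKM. These groups overlapped for all 3 genes. Gpc6 was 7.66, 7.74 and 8.39 FPKM and then 7.56, 7.24 and 10.7 FPKM, with overlap. The log2 differences ranged from -0.23 for Gpc4 to 0.80 for Gpc3, and limma adjusted p-values from 0.738 to 0.901. Of all 12641 tested genes, 0% passed, and the smallest limma adjusted p of any gene was 0.395. An unadjusted limma p under 0.05 was found for 748 of the 12641, with Sdc2 and Gpc2 among them. The 95% intervals of the log2 difference were -0.17 to 0.12 for Sdc3, -0.20 to 0.34 for Gpc6, -0.41 to 0.14 for Gpc1 and -0.68 to 0.22 for Gpc4.

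A pair of syndecans showed no overlap between the knockout groups, against 11.8% of all tested genes. Sdc2 was 25.02, 27.0 and 27.6 FPKM with vehicle and 30.9, 31.9 and 31.5 FPKM with TGFB1 (log2 0.24, SE 0.068, limma adjusted p = 0.738). Sdc4 was 54.9, 67.9 and 60.3 FPKM and then 70.8, 73.5 and 70.1 FPKM (log2 0.23, SE 0.12, limma adjusted p = 0.738). For Sdc4 the difference had the opposite sign to that in intact cultures. Sdc1 was 55.4, 70.5 and 74.9 FPKM with vehicle and 68.7, 79.2 and 118 FPKM with TGFB1, and it overlapped. The lowest Sdc1 value of all 12 libraries was in Tgfbr2KO_Vehicle replicate 1, the library with the highest epithelial marker sum. That sum was mostly keratins (Krt8 at 25.8, Krt18 at 21.8 and Krt19 at 13.9 FPKM), with Epcam at 1.02 and Cdh1 at 0.989 FPKM. The same library had the highest mesothelial marker sum (5.59 FPKM), mostly Msln. The part of RNA from other cell types in the Sdc1 values was not tested. Gpc2 was 9.82, 10.0 and 9.85 FPKM with vehicle and 11.2, 10.0 and 12.1 FPKM with TGFB1, with replicate 2 level between them.

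**Figure D3:**
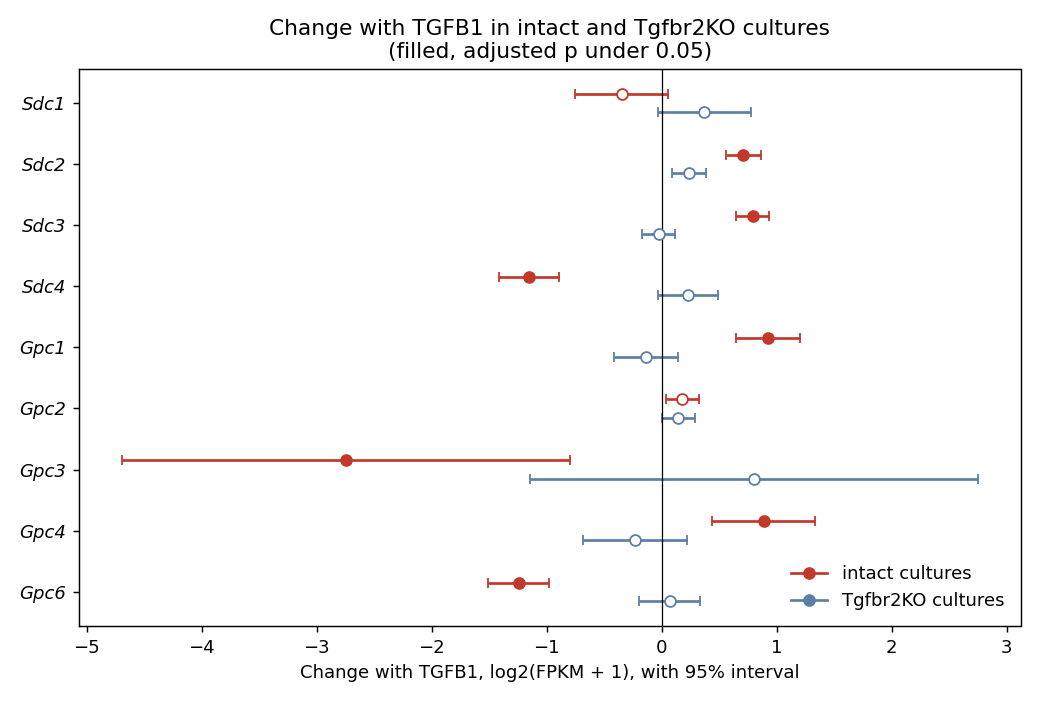
Log2(FPKM + 1) difference between TGFB1 and vehicle (horizontal axis) with its 95% interval for each tested member, in intact and in knockout cultures; filled points passed the limma test at an adjusted p under 0.05. The 7 filled points are all of intact cultures, from -2.74 for Gpc3 to 0.93 for Gpc1, and no knockout point is filled.

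The difference between these responses was tested itself, as the change in knockout minus the change in intact cultures. It passed for 6 of 9 members, against 17.6% of all tested genes (8.38% higher and 9.26% lower). It was negative for the 4 genes that rose in intact cultures: Sdc2 at -0.47 (SE 0.096, limma adjusted p = 0.00796), Sdc3 at -0.82 (SE 0.090, 0.000324), Gpc1 at -1.06 (SE 0.18, 0.00314) and Gpc4 at -1.12 (SE 0.29, 0.0245). For Sdc4 it was 1.38 (SE 0.17, limma adjusted p = 0.000551), and for Gpc6 it was 1.31 (SE 0.17, 0.00082). This test shares the Vehicle and TGFB1 libraries with the comparison in intact cultures, so its calls and signs are no further evidence of that response. The Gpc4 call ended without TGFB1 replicate 1 (0.0637) or 2 (0.0511) and without Tgfbr2KO_Vehicle replicate 1 (0.0604) or 2 (0.05003). Sdc1 (0.72, SE 0.26, limma adjusted p = 0.0802) and Gpc3 (3.55, SE 1.2, 0.0748) did not pass, but had adjusted p-values of 0.0106 and 0.0115 with the replicate block. Over all genes, the block raised the number called from 2230 to 3658, and without TGFB1 replicate 1 it was 1430. Gpc2 gave -0.03 (SE 0.092, limma adjusted p = 0.846), which turned to 0.04 with upper-quartile scaling and to 0.06 with equal FPKM sums.

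With vehicle alone, 1 member differed between knockout and intact cultures. Gpc2 was 14.0, 14.0 and 13.3 FPKM in Vehicle and 9.82, 10.0 and 9.85 FPKM in Tgfbr2KO_Vehicle, which is 1.39-fold lower (log2 -0.43, SE 0.065, limma adjusted p = 0.0271). All 3 knockout libraries were below all 3 intact libraries. The call ended in a fit to these 2 groups alone (0.117), without Vehicle replicate 1 (0.0912) or 3 (0.0917) and without Tgfbr2KO_Vehicle replicate 1 (0.130), 2 (0.0826) or 3 (0.0574). Of all tested genes, 1.24% passed, a count of 157 that went from 0 to 759 as single libraries were left out. Groups did not overlap for 4 members (Sdc1, Sdc3, Gpc2 and Gpc6, each lower in the knockout), against 30.3% of all genes. Their limma adjusted p-values other than that of Gpc2 were 0.233 for Sdc1, 0.152 for Sdc3 and 0.226 for Gpc6.

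Gpc3 varied widely between replicate numbers. It was 4.48, 8.12 and 23.3 FPKM in Vehicle and 0.168, 0.888 and 4.52 FPKM in Tgfbr2KO_Vehicle. The ranges overlap, but number by number the log2 difference was -2.23, -2.27 and -2.14 (limma adjusted p = 0.185 for the difference of means). In Tgfbr2KO_TGFB1 it was 0.635, 1.31 and 16.0 FPKM. Replicate 3 was thus highest in 3 of the 4 groups, and with TGFB1 in intact cultures it was lowest. The coefficient of variation of Gpc3 was 83.3% (Vehicle) and 44.5% (TGFB1) in intact cultures and 125% (vehicle) and 145% (TGFB1) in the knockout, against group medians of 6.13% to 9.74% over 8808 genes with a mean of at least 5 FPKM. The fibroblast marker sum was highest in replicate 3 of all 4 groups, at 8652 and 9012 FPKM in intact cultures without and with TGFB1 and at 4243 and 6788 FPKM in the knockout. Col1a1, Col1a2 and Vim made up most of this sum, and single markers differed. Col1a2 was highest in replicate 3 of all 4 groups. Vim was lowest there in Vehicle (1088 FPKM) and Tgfbr2KO_TGFB1 (1005 FPKM). Pdpn was lowest there in Vehicle (126 FPKM), Tgfbr2KO_Vehicle (221 FPKM) and Tgfbr2KO_TGFB1 (155 FPKM), and highest there in TGFB1 (139 FPKM). The part of the fibroblast markers in the Gpc3 values was not tested.

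With TGFB1 present, knockout and intact cultures differed in 7 members, against 33.9% of all tested genes. Sdc4 was 2.34-fold (log2 1.21, SE 0.12, limma adjusted p = 3.65e-05) and Gpc6 2.39-fold higher in the knockout (log2 1.04, SE 0.12, 0.000105). Lower in the knockout were Sdc3 (log2 -0.999, SE 0.064, limma adjusted p = 2.62e-06), Gpc4 (-0.87, SE 0.20, 0.00774), Gpc1 (-0.83, SE 0.12, 0.00061), Sdc2 (-0.59, SE 0.068, 9.77e-05) and Gpc2 (-0.47, SE 0.065, 0.000379). Groups did not overlap for these 7, against 45.4% of all tested genes. This comparison shares the TGFB1 libraries with the one in intact cultures, so its calls are no further evidence of that response. Sdc1 (0.32, limma adjusted p = 0.204) and Gpc3 (1.33, 0.278) were not called, although both were higher in the knockout in all 3 pairs of the same replicate number.

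The enzymes that build and trim the chains were then described from lists of the pathway, each to be read against all tested genes, of which 17.3% rose and 14.6% fell with TGFB1 in intact cultures (31.9% in all) with a median log2 change of 0.02. Several list counts lie near these shares. Chain assembly begins with a linker of a few sugars, after which Ext1 and Ext2 polymerise heparan sulfate. Of 12 genes for linker and polymerisation, 11 were tested, 4 rose with TGFB1 in intact cultures, 1 fell and the median change was 0.11 (-0.02 with equal FPKM sums, when 3 rose and 2 fell). Ext1 was 98.8, 88.4 and 102 FPKM in Vehicle and 145, 141 and 140.1 FPKM in TGFB1 (log2 0.56, SE 0.089, limma adjusted p = 0.0011). B4galt7, a galactosyltransferase of the linker, went from 15.7 ± 1.67 to 26.3 ± 1.04 FPKM (log2 0.71, limma adjusted p = 0.000586). Extl3, which starts the heparan sulfate chain, rose by 0.35 (limma adjusted p = 0.00118), and Pxylp1, a phosphatase of the linker xylose, fell by 0.51 (0.00759). Ext2 rose by 0.21 (limma adjusted p = 0.00782), a call that ended with equal FPKM sums (0.343) and with upper-quartile scaling (0.132). In Tgfbr2KO_TGFB1, Ext1 was 76.1, 83.7 and 98.8 FPKM, against 70.4, 75.5 and 76.8 FPKM with vehicle.

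Sulfation of heparan sulfate sets which ligands bind. Of 16 genes for sulfation and epimerisation, 8 were tested, 3 rose, 2 fell and the median change was 0.13, which became slightly negative with equal FPKM sums. Hs6st1, a 6-O-sulfotransferase, was 25.5, 22.0 and 30.0 FPKM in Vehicle and 78.5, 73.7 and 85.8 FPKM in TGFB1, a log2 difference of 1.59 (SE 0.13, limma adjusted p = 1.8e-05). Its paralogue Hs6st2 rose from 35.5 ± 8.53 to 61.8 ± 10.9 FPKM (log2 0.80, limma adjusted p = 0.0206). Glce, the epimerase that makes iduronic acid, rose from 16.2 ± 2.83 to 38.3 ± 2.53 FPKM (log2 1.21, limma adjusted p = 5.55e-05). The 3-O-sulfotransferase Hs3st1, known for making the antithrombin-binding site of heparin, fell from 4.94, 5.05 and 11.0 FPKM to 0.452, 0.567 and 0.833 FPKM (log2 -2.23, SE 0.33, limma adjusted p = 0.000754). Hs3st3b1, another 3-O-sulfotransferase, fell by 0.43 (0.0282) from 1.96 to 1.19 FPKM. Ndst1, the main N-sulfotransferase (log2 -0.05, limma adjusted p = 0.592), and Hs2st1, a 2-O-sulfotransferase (0.05, 0.559), did not pass. In the knockout, Hs6st1 was 17.8 ± 1.71 FPKM with vehicle and 21.0 ± 2.95 FPKM with TGFB1, and its response differed from that of intact cultures by -1.37 (SE 0.18, limma adjusted p = 0.000886).

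**Figure D4:**
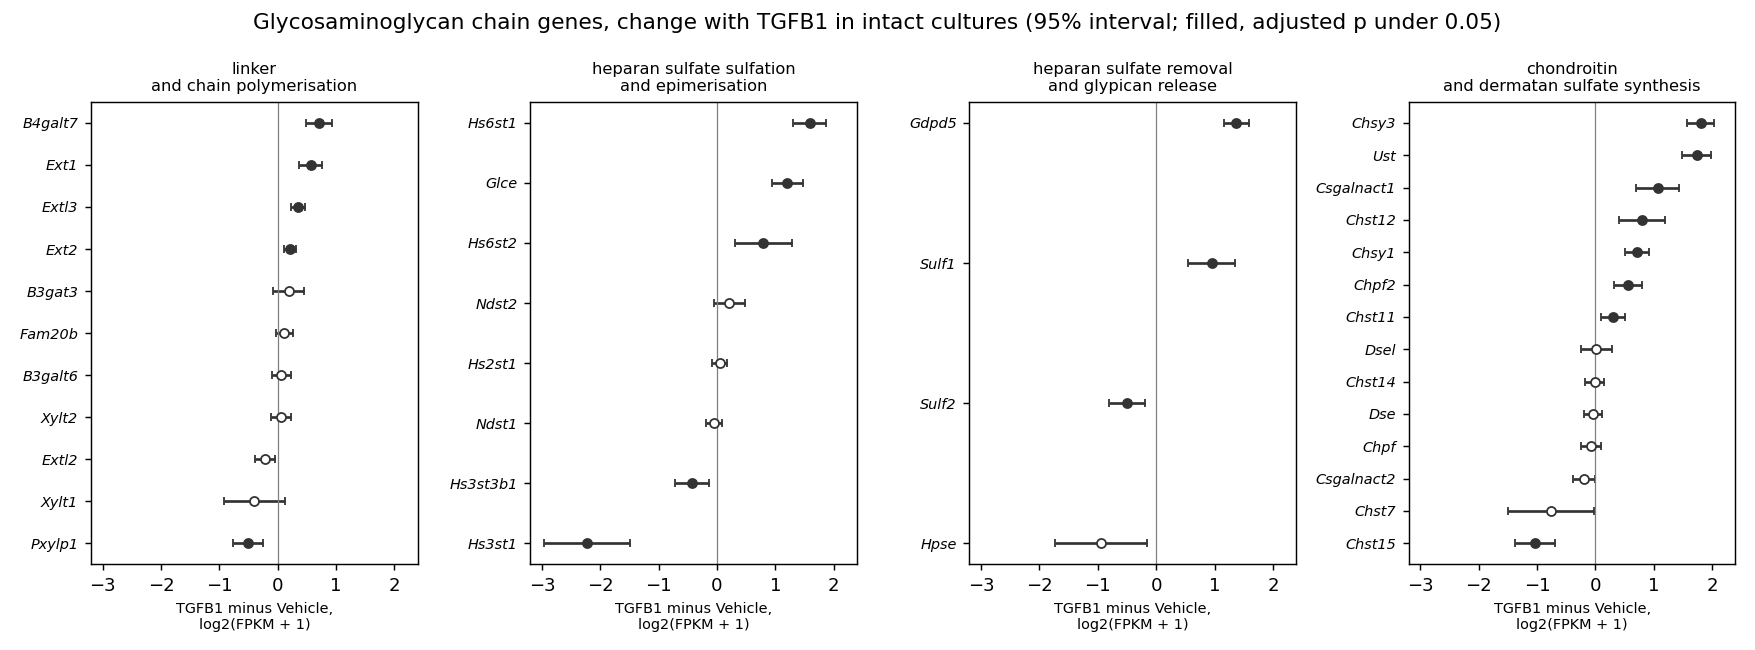
Log2(FPKM + 1) difference between TGFB1 and Vehicle (horizontal axis) with its 95% interval for each tested gene of 4 lists of glycosaminoglycan chain genes in intact cultures; filled points passed the limma test at an adjusted p under 0.05. Hs6st1 (1.59) and Glce (1.21) lead the sulfation list, Hs3st1 (-2.23) is its lowest, and 7 of 14 chondroitin and dermatan sulfate genes are filled on the higher side.

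Genes that remove sulfate or release glypicans went both ways. Of 6 listed, 4 were tested, 2 rose and 1 fell. Gdpd5, a membrane phosphodiesterase that cuts GPI anchors and can release glypicans, was 7.94, 6.95 and 7.27 FPKM in Vehicle and 19.8, 20.9 and 21.3 FPKM in TGFB1 (log2 1.37, SE 0.098, limma adjusted p = 9.38e-06). In the knockout it was 5.73 ± 0.919 FPKM with vehicle and 5.18 ± 0.471 FPKM with TGFB1. The 6-O-endosulfatase Sulf1 rose from 53.0 ± 13.02 to 101 ± 5.65 FPKM (log2 change 0.95, SE 0.18, limma adjusted p = 0.00313), while Sulf2 fell from 31.3 ± 4.75 to 21.7 ± 0.377 FPKM (log2 change -0.50, SE 0.14, 0.0187). The test of the difference between genotypes did not pass for Sulf1 (-0.54, limma adjusted p = 0.172) or Sulf2 (0.57, 0.0674). Hpse, the heparanase, was 2.42 ± 1.07 FPKM in Vehicle and 0.721 ± 0.0431 FPKM in TGFB1 (log2 -0.95, limma adjusted p = 0.0664). Notum, a secreted esterase that acts on Wnt ligands, was at most 0.117 FPKM in any library and was not tested.

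Chondroitin and dermatan sulfate, which some syndecans carry beside heparan sulfate, had 16 listed genes, of which 14 were tested, 7 rose and 1 fell (median 0.16). With equal FPKM sums 6 rose and 3 fell (median 0.04), as Chpf (limma adjusted p = 0.0401) and Csgalnact2 (0.0220) were then lower, and with upper-quartile scaling 6 rose and 2 fell. Chsy3, a chondroitin synthase, rose from 3.16 ± 0.481 to 13.4 ± 0.682 FPKM (log2 change 1.80, SE 0.10, limma adjusted p = 3.01e-06). Ust, a uronyl 2-O-sulfotransferase, rose from 3.72 ± 0.242 to 14.7 ± 0.718 FPKM (log2 change 1.74, SE 0.11, 4.82e-06). Chst15, which adds the second sulfate of chondroitin sulfate E, fell from 16.9 ± 1.01 to 7.82 ± 1.26 FPKM (log2 change -1.03, SE 0.16, limma adjusted p = 0.000808). The others called higher were Chsy1, Csgalnact1, Chpf2, Chst12 and Chst11, the last of which did not pass with upper-quartile scaling or equal FPKM sums. For the supply of sulfate donor and sugar nucleotides, 3 of 11 tested genes rose and 1 fell (median 0.04, but -0.10 with equal FPKM sums, when 1 rose and 2 fell). Ugdh, which makes UDP-glucuronic acid, fell from 50.4 ± 3.10 to 30.3 ± 0.850 FPKM (log2 -0.71, limma adjusted p = 7.42e-05), and Papss2, a sulfate donor synthase, rose by 0.61 (0.00679). Slc26a2 and Slc35b3, transporters called higher at 0.31 and 0.23, did not pass with equal FPKM sums (0.0655 and 0.324).

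Syndecan tails bind Sdcbp (syntenin), which carries syndecans into exosomes. It was 77.1 ± 6.86 FPKM in Vehicle and 75.5 ± 6.66 FPKM in TGFB1 (log2 -0.03, limma adjusted p = 0.813). Of 11 tested partners, 3 rose (Rab5a 0.35, Gipc1 0.40 and Sdcbp2 0.55) and Tiam1, a Rac exchange factor, fell by 0.27 (limma adjusted p = 0.0289). With equal FPKM sums 1 rose and 2 fell, as the calls of Rab5a and Sdcbp2 ended and Cask, a scaffold protein, was lower (limma adjusted p = 0.0235). Of 8 tested shedding proteases and their inhibitor, 3 rose and 2 fell (median 0.40). Mmp9, a gelatinase, was 38.8, 11.0 and 33.4 FPKM in Vehicle and 185, 345 and 250.4 FPKM in TGFB1 (log2 3.32, SE 0.52, limma adjusted p = 0.00103). Mmp14, a membrane metalloprotease, rose from 263 ± 50.2 to 389 ± 4.76 FPKM (log2 0.58, limma adjusted p = 0.00793), and Timp3, an inhibitor of sheddases, from 78.9 ± 10.9 to 181 ± 16.5 FPKM (log2 1.20, 0.000418). Adam17, a sheddase, fell from 16.9 ± 1.13 to 12.0 ± 0.749 FPKM (log2 -0.47, limma adjusted p = 0.0128), and Mmp16 fell by 0.57 (0.0335).

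Heparan sulfate chains bind many secreted ligands. Of 21 listed, 20 were tested, 6 rose and 11 fell, with a median of -0.87. Fgf10, a growth factor for epithelium, went from 42.9 ± 5.32 to 2.13 ± 0.327 FPKM (log2 change -3.81, SE 0.14, limma adjusted p = 1.58e-07). Hgf fell from 18.6 ± 0.149 to 2.97 ± 0.662 FPKM (log2 -2.32, 1.11e-05) and Igfbp5 from 25.8 ± 3.56 to 0.582 ± 0.284 FPKM (log2 -4.09, 3.66e-06). Fgf7 and Bmp4 fell by 1.99 and 2.86. Pdgfa rose from 34.5 ± 1.57 to 153 ± 13.2 FPKM (log2 change 2.12, SE 0.082, limma adjusted p = 1.7e-07). Among 7 other heparan sulfate proteoglycans, Tgfbr3 (betaglycan, a co-receptor of TGF-beta) fell from 31.1 ± 3.93 to 3.51 ± 1.57 FPKM (log2 change -2.89, SE 0.34, limma adjusted p = 0.000189), Cd44 rose by 0.90 (0.00591) and Hspg2 (perlecan) by 0.34 (0.00988, but 0.134 with equal FPKM sums). None of the 9 lists had a called gene for TGFB1 in knockout cultures, where no gene of the whole table was called.

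The difference between the responses of knockout and intact cultures passed for 8 ligands in the positive and 5 in the negative direction, of 20. It passed for 1 and 5 of 14 chondroitin genes, 2 and 2 of 11 linker and polymerisation genes, 1 and 2 of 8 sulfation genes, 1 and 2 of 8 shedding genes and 0 and 1 of 4 release genes. It passed for 2 and 0 of 11 supply genes, 1 and 1 of 11 partners and 1 and 1 of 7 other proteoglycans. Of all tested genes, 8.38% passed in the positive and 9.26% in the negative direction. For B4galt7 the difference was -0.94 (limma adjusted p = 0.00216), for Glce -0.97 (0.00375), for Hs3st1 2.76 (0.00361), for Gdpd5 -1.49 (0.000134) and for Timp3 -1.18 (0.00672). Ext1 did not pass (-0.36, limma adjusted p = 0.0783).

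The genes most like each member were searched among 8807 others by Pearson's r over the 12 libraries, as a description with no test. The 12 points share libraries and groups. The TGFB1 libraries stood apart from all others for Sdc2, Sdc3, Sdc4, Gpc1, Gpc2, Gpc4 and Gpc6, while those of Sdc1 and Gpc3 overlapped with knockout libraries. The share of all tested genes that stand apart in this way was not counted, so it is not known whether this is common. Against Vehicle alone, 47.9% of all tested genes did not overlap. Sdc3 was closest to Gdpd5 (r 0.995), whose mean FPKM was 7.39 in Vehicle and 20.7 in TGFB1, and then to Mtch1 and Jup. Gpc6 was closest to Cbx6 (r 0.994), Gpc4 to Gsn (r 0.991), Sdc2 to Cnn3 (r 0.984) and Sdc4 to Tgfbr3 (r 0.976). For Gpc1 it was Capg (r 0.957), for Gpc2 Tmem132a (r 0.974), for Sdc1 Zcchc24 (r 0.977) and for Gpc3 Tshz2 (r 0.983). Between members, r was 0.92 for Sdc2 with Sdc3, 0.91 for Sdc4 with Gpc6, -0.92 for Sdc3 with Sdc4 and -0.91 for Gpc4 with Gpc6. Sdc1 and Gpc3 had an r of 0.86 with each other.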

How the data were processed

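Gene-level FPKM values of 12 libraries were used as deposited by the authors; poly-T selection, random hexamer priming and Illumina sequencing are given per the labels' protocols. Per the submitters' processing notes, kallisto 0.46.1, DESeq2 1.40.1 and the mouse build mm9 were used, and their roles are not given in the sources used here. A median-ratio factor computed from the table was the same (1.01) in all libraries, so the values were already on that scale. Of 25203 genes, the 12641 that reached 1 FPKM in 3 or more libraries were tested on log2(FPKM + 1) with limma 3.58.1 (trend, R 4.3.3) in 1 fit to all 4 groups with 8 residual degrees of freedom. Contrasts were adjusted over all tested genes by the Benjamini-Hochberg method (threshold 0.05). The code was tested on simulated data.

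Named genes were all members, up to 6 called genes of each of 9 pathway lists with the smallest adjusted p and a mean of at least 1 FPKM in either group, a fixed set of enzymes, and the 3 genes most like each member; a few low-ranked called genes were named after their values were seen. The members and lists were chosen with earlier results of these data known. Nothing states that replicates came from separate animals or cultures, so p-values measure only the spread between these libraries. Same-numbered libraries deviated together within a genotype (correlation of deviations 0.391, 0.445 and 0.408 in intact and 0.588, 0.227 and 0.529 in knockout cultures), with the numbers taken from the labels. Across genotypes, in the pairs of groups compared, numbers 1 and 3 deviated together (0.336 and 0.412 with vehicle, 0.337 and 0.276 with TGFB1). Number 2 did not (-0.0867 and 0.00945), so pairing by number was borne out only within a genotype. Comparisons by number and replicate-block fits between genotypes are given as well, and they assume a pairing that number 2 did not show. Read totals are unknown, so no counting interval is given. Alternatives were other pseudocounts, filters, scalings, a replicate block, 2-group fits and leaving out each library. The within-genotype block and the scaling to equal FPKM sums were chosen after seeing the data.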

Additional observations from a re-analysis of the deposited data

Results flagged for a closer look

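For 6 members the response to TGFB1 differed between knockout and intact cultures by the test of the difference itself (change in knockout minus change in intact cultures, log2 scale, limma adjusted p under the threshold). The values were -0.47 for Sdc2, -0.82 for Sdc3, 1.38 for Sdc4, -1.06 for Gpc1, -1.12 for Gpc4 and 1.31 for Gpc6. The test uses the same intact libraries as the comparison of TGFB1 with Vehicle, so it is no further evidence of that response. With 3 libraries in each group, no single library could be checked as standing apart from its group.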

How the results depend on the processing

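The 7 members called for TGFB1 in intact cultures kept their count and directions under upper-quartile and equal-sum scaling. Median-ratio scaling could not alter the balance between libraries, since its factor was the same (1.01) in all of them. The replicate block called 8 members there and 8 for the difference between responses, where 3658 genes passed in all (3558 with the block within each genotype). For TGFB1 in intact cultures, the number of all genes called with the replicate block stayed within 1.5-fold of the 4033 (31.9%) called without it. For knockout against intact cultures with vehicle, where numbers 1 and 3 but not 2 deviated together, the replicate block called 3 members and 1897 genes; Sdc1 (adjusted p = 0.0476) and Gpc3 (0.0364) joined Gpc2, and Tgfbr2 had an adjusted p of 0.0450. With TGFB1, the replicate block called 8 members, Sdc1 (0.0462) joining the 7, and Tgfbr2 had 0.0132. The number of all genes called with the block in that comparison stayed within 1.5-fold of the 4284 (33.9%) called without it. For knockout against intact cultures with vehicle, the fit to 2 groups called 0 members and 0 genes. There, no filter on low values called 71 genes and no trend 90. With a pseudocount of 0.1, 1 gene was called for TGFB1 in knockout cultures. Leaving out single libraries gave 2907 to 4571 genes and 6 to 8 members for TGFB1 in intact cultures, 0 to 1 genes and 0 members in knockout cultures (1 gene without Vehicle replicate 2), and 1430 to 2454 genes and 5 to 8 members for the difference. It gave 3334 to 4373 genes and 7 members for knockout against intact with TGFB1. With vehicle, it gave 0 to 1 members and 0 to 759 genes: 4, 86 and 0 without Vehicle replicates 1, 2 and 3, 28, 57 and 41 without those of TGFB1, 0, 11 and 7 without those of Tgfbr2KO_Vehicle, and 45 and 759 without Tgfbr2KO_TGFB1 replicates 2 and 3. Signs turned for changes with TGFB1 in knockout cultures as single libraries were left out: Sdc3 ranged from -0.0782 to 0.0182 (0.0182 without Tgfbr2KO_Vehicle replicate 3, 0.0075 without Tgfbr2KO_TGFB1 replicate 2), Gpc3 from -0.24 to 1.4473 and Gpc6 from -0.0877 to 0.1634, both negative without Tgfbr2KO_TGFB1 replicate 3. The Gpc2 difference turned to 0.043 with upper-quartile scaling and 0.0615 with equal sums, and ranged from -0.0916 to 0.0343 (without Tgfbr2KO_TGFB1 replicate 2). None of these passed the test. Calls gained were the Gpc2 rise with TGFB1 (adjusted p = 0.0488 with a 5 FPKM filter, 0.0322 and 0.0280 without Tgfbr2KO_TGFB1 replicates 2 and 3) and the differences of Gpc3 without Tgfbr2KO_Vehicle replicate 3 (0.0495) or Tgfbr2KO_TGFB1 replicate 1 (0.0410), and of Sdc1 without the latter (0.0306). Of all genes, TGFB1 in intact cultures called 2184 higher and 1849 lower, 1353 and 2464 with upper-quartile scaling and 1168 and 2796 with equal sums, which moved the median of all genes from 0.02 to -0.11. For the difference, the split was 1059 and 1171, 1332 and 784, and 1294 and 781. For knockout against intact with TGFB1 it was 1973 and 2311, 2655 and 1537, and 2739 and 1503, and with vehicle 66 and 91, 68 and 55, and 83 and 49. The 2-group fit of the difference and the within-genotype block between genotypes were not run. The cause of these changes was not tested. Read depth is unknown, which limits Gpc3 and Gpc5, the members read below 1 FPKM.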
